A study of Mus musculus with 27 samples.

Results

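To determine where H3K4 methylation lay over the genes of the hypoxia response and of glycolysis, and where it was called lower after loss of *Kmt2d* from heart muscle, 40 genes chosen for their function were followed among the 22367 protein-coding genes of the mouse annotation. The choice was made with earlier results of these data known. They comprised the 4 subunits of the hypoxia-inducible factors (HIF), the 3 prolyl hydroxylases and *Vhl* that turn these factors over, 2 secreted signals, 3 sugar and lactate carriers, 17 enzymes of glycolysis and lactate production, 3 pyruvate dehydrogenase kinases and 7 further HIF targets. For each gene, all regions of the merged list of H3K4 methylation were taken that touched the gene body or lay within 5 kb of a transcription start site (TSS). All 40 genes were found in the annotation, and they held 249 regions on 16 chromosomes.

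The libraries profiled H3K4me1, H3K4me2 and H3K4me3 in E11.5 hearts of C57BL/6 mouse embryos by ChIP-Seq, the sequencing of DNA that precipitates with an antibody to each mark. Controls were *Tnnt2::Cre;Kmt2d fl/+;mTmG/+* and mutants were *Tnnt2::Cre;Kmt2d fl/fl;mTmG/+*, with 3 pools of 30 hearts for each genotype. Of 27 libraries, 24 came from these hearts, with 3 per genotype for each mark and for input. The other 3 libraries, of KMT2D ChIP-Exo in cardiomyocytes made from embryonic stem cells, were not analysed here. The controls thus carried Cre and the mTmG reporter as the mutants did, and Cre removed their single floxed *Kmt2d* copy in the same cells. Cre was driven by the *Tnnt2* promoter, which is active in heart muscle cells, so that endocardium, epicardium and blood in the same hearts kept the floxed alleles intact. In such whole hearts, fewer cells of a type and less of the mark per cell cannot be told apart.

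KMT2D is a methyltransferase that places methyl groups on lysine 4 of histone H3 at enhancers and promoters. In normal oxygen, the prolyl hydroxylases EGLN1, EGLN2 and EGLN3 mark the HIF alpha subunits for capture by VHL and destruction, and when oxygen is low the alpha subunits persist, pair with ARNT and bind target genes. Among those targets are the genes for glucose uptake, for the steps from glucose to lactate, for blood vessel growth and for the removal of mitochondria. The early embryonic heart forms before the coronary circulation and draws much of its energy from glycolysis.

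The deposited data were 3 lists of region coordinates, with nothing to say how much of a mark a region held. The merged list held 358833 regions with a median width of 320 bp, of which 2730 were in the authors' list of lower H3K4me1 and 6699 in their list of lower H3K4me2 in mutant hearts. Sequencing depth could not be read from such lists, and neither could the spread between the pools of hearts. A gene or region is described below as called lower where a region had identical coordinates in a decreased list. Wide regions were called more often, and a region outside the lists may still have changed. No list of changed H3K4me3 was analysed here. As a check of the tissue, a TSS lay inside a merged region for all 5 cardiomyocyte markers (*Tnnt2*, *Nkx2-5*, *Myh6*, *Myl7* and *Actc1*), in regions of 12960 to 22900 bp. The same held for all 4 markers of endothelium and endocardium (1580 to 10240 bp), all 3 of epicardium (3540 to 12160 bp) and all 4 of red blood cells (4140 to 7080 bp). It also held for all 4 markers of neurons (580 to 3580 bp) and for 1 of 4 hepatocyte markers. A TSS inside a region thus did not separate heart cell types from neurons. The widths at neuron markers overlapped those of endothelium and endocardium and of epicardium, and lay below those of cardiomyocytes and red blood cells.

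All 40 genes had a TSS inside a merged region, against 70.4% of the other coding genes. Of their 199 annotated TSS, 155 lay inside a region. The 5′-most annotated TSS lay outside every region for 3 genes, *Hif1a*, *Hk1* and *P4ha2*, which each had a further TSS inside. The number of regions per gene ranged from 1 at *Pgk1*, the X-linked gene of phosphoglycerate kinase, to 22 at *Hk1*, the gene of a broadly used hexokinase. Its median of 5 was also that of the other coding genes with a region.

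While their number had the same median, the regions were wide. The widest region of each gene had a median of 7720 bp (quartiles 5275 and 10315 bp, range 2660 to 28140 bp), against 3480 bp (quartiles 1800 and 5820 bp) over other coding genes with a region and 4200 bp over those with a TSS inside. It was wider than that of the median coding gene in 37 of 40 genes and at or above the 90th percentile in 12. Regions covered a median of 53.8% of the gene body, against 20.5%, while gene length was close, with medians of 17154.5 and 18273 bp. The widest region was at *Slc2a1*, which encodes the glucose carrier GLUT1, and the narrowest of the 40 was at *Vhl*. Most regions were small, and 103 of the 249 were under 500 bp, whereas 79 were 2000 bp or more.

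**Figure D1:**
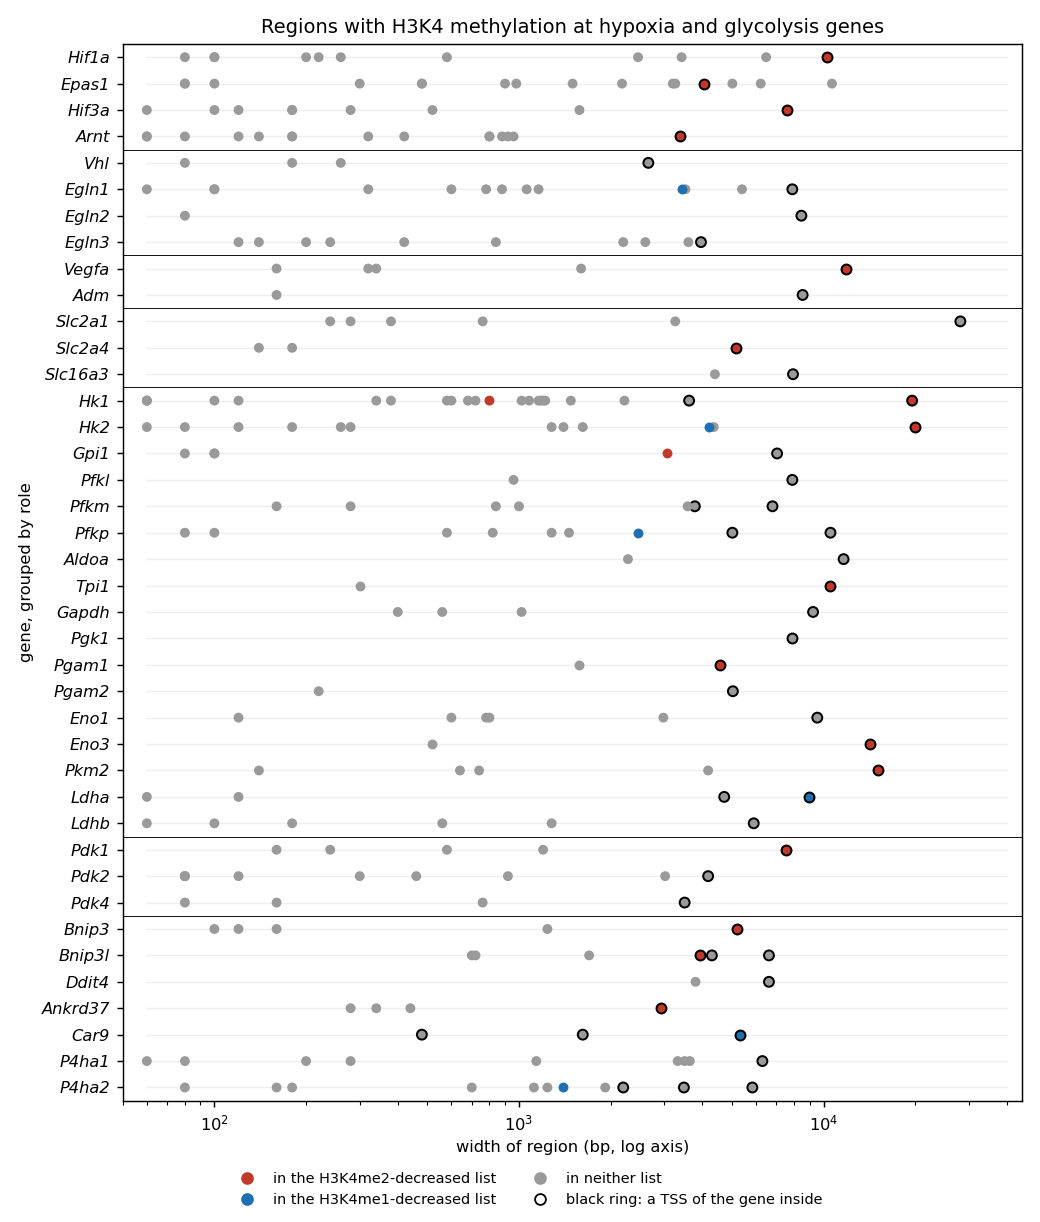
Width in bp (log axis) of each of the 249 merged regions, 1 dot per region and 1 line per gene, with genes grouped by role. Red dots are regions called lower for H3K4me2, blue dots regions called lower for H3K4me1, grey dots regions in neither list, and black rings regions with a TSS of the gene inside. The ringed regions were the widest of their gene in 39 of 40 genes, and red dots were mostly ringed while most blue dots were not.

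The widest region held a TSS in 39 of 40 genes. The exception was *Epas1*, the gene of HIF-2 alpha, whose widest region of 10660 bp lay in the gene body, apart from the 4060 bp region over its TSS. Around the TSS the regions were not symmetric. The widest region with a TSS reached further downstream than upstream in 39 of 40 genes, with a median downstream share of 76.3%, against a median of 66.1% and 75.1% of genes reaching further downstream among the other coding genes. At *Slc2a1* the region ran 6470 bp upstream and 21669 bp downstream of the TSS. The exception was *Eno3*, the gene of muscle enolase, with 13.5% of its region downstream, and that region also held the TSS of *Pfn1*, *Rnf167* and *Slc25a11*.

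HIF binds DNA at a short core, ACGTG or GCGTG, and the stretches just before the TSS of these genes were searched for those letters on both strands. In the 250 bases before the start of the annotated gene, 26 of 40 genes (65.0%) held at least 1 match, against 42.5% of 22322 other coding genes, and 17 (42.5%) held at least 2, against 19.5%. The median count of CpG in these 250 bases was 11 at the 40 genes and 8 at the others, and the median GC content was 59.2% and 54.0%. The start of the annotated gene was not always the TSS inside a region. With the TSS inside the widest TSS region, a window chosen after the data were seen, 28 genes (70.0%) held a match, against 52.8% of 15708 other coding genes. There the median count of CpG was 11 against 13, and the median GC content 59.2% against 58.8%. The palindrome CACGTG counts as a match on each strand, and a match is only a match of letters.

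To show these letters inside regions that were called lower, 100 bases before the TSS are given for the 6 genes with a called region at the TSS and 3 or more matches in their window, with the matches in capitals on either strand (CACGT and CACGC are ACGTG and GCGTG read from the other strand). All were read from the NCBIM37 (mm9) genome in the direction of transcription, and none of the stretches holds a base of an annotated untranslated region. The *Hif1a* and *Ldha* stretches lie inside the annotated gene, before a TSS downstream of its start. The *Hif1a* stretch lies at chr12:75008704-75008803 (plus strand), the *Slc2a4* stretch at chr11:69761732-69761831 (minus strand), the *Pgam1* stretch at chr19:41986182-41986281 (plus strand), the *Ldha* stretch at chr7:54101066-54101165 (plus strand), the *Bnip3* stretch at chr7:146101214-146101313 (minus strand) and the *Ankrd37* stretch at chr8:47085349-47085448 (minus strand).
*Hif1a*: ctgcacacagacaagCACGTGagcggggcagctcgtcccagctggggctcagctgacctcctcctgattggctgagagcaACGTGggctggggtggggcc
*Slc2a4*: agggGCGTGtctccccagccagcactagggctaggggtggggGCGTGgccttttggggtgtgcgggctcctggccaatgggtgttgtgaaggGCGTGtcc
*Pgam1*: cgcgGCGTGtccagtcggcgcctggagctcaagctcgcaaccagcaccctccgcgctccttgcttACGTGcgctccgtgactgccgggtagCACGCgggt
*Ldha*: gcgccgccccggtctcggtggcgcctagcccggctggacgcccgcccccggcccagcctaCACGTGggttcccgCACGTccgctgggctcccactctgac
*Bnip3*: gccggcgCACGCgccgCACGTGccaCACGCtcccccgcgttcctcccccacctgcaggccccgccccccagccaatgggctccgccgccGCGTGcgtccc
*Ankrd37*: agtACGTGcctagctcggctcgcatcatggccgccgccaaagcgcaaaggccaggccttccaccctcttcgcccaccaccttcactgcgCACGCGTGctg
The *Hif1a*, *Slc2a4*, *Pgam1* and *Ankrd37* stretches each hold all 3 matches of their window, the *Bnip3* stretch holds all 5, and the *Ldha* stretch holds 3 of 6. The *Ldha* stretch lies in a region called lower for H3K4me1, and the other 5 stretches lie in regions called lower for H3K4me2. Among the 40 genes, a match before the start of the annotated gene was present in 11 of the 17 genes with a region called lower for H3K4me2 and in 15 of the 23 without. For H3K4me1 the counts were 3 of 6 genes with a called region and 23 of 34 without. Before the TSS inside the widest TSS region they were 10 of 17 and 18 of 23 for H3K4me2, and 6 of 6 and 22 of 34 for H3K4me1, so that the order of the H3K4me1 counts turned with the window.

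To determine where methylation was called lower in mutant hearts, the regions were compared with the decreased lists. For H3K4me2, 17 of 40 genes (42.5%, 95% Wilson interval 28.5 to 57.8%) had at least 1 called region, against 28.7% of the 20025 coding genes with a region. At the TSS itself the call was made for 16 genes (40%), against 29.2% of coding genes with a TSS inside a region. Of the 249 regions, 18 (7.23%) were called, against 2.69% of the regions of all coding genes. The share of called genes climbed with region width across the annotation, from 1.31% of the other coding genes with the narrowest regions to 57.1% of those with the widest. Among other coding genes in the same of 20 width classes, the share averaged over the 40 genes was 44.5%, which corresponds to 17.8 of 40 genes, so that 17 called genes is near what genes of like region width showed. Among coding genes with a like number of regions the share was lower, at 27.3%, and the count of 17 lies above it. The intervals treat genes as independent draws and do not cover the variation between pools of hearts.

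For H3K4me1, 6 genes (15.0%, 95% Wilson interval 7.06 to 29.1%) had a called region, against 7.08% of coding genes with a region. Other coding genes of like region width gave 12.5%, or 5.02 of 40 genes, and those with a like number of regions gave 4.91%. At the TSS, 2 genes (5.0%) had the call, against 1.29%, and 6 of 249 regions (2.41%) were called, against 0.935% of the regions of all coding genes. A called region of both marks was found at 1 gene, *Hk2*, against 2.86% of coding genes, and there the called regions were separate. None of the 249 regions was in both lists. In all, 22 genes had a call of either mark and 18 had none.

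**Figure D2:**
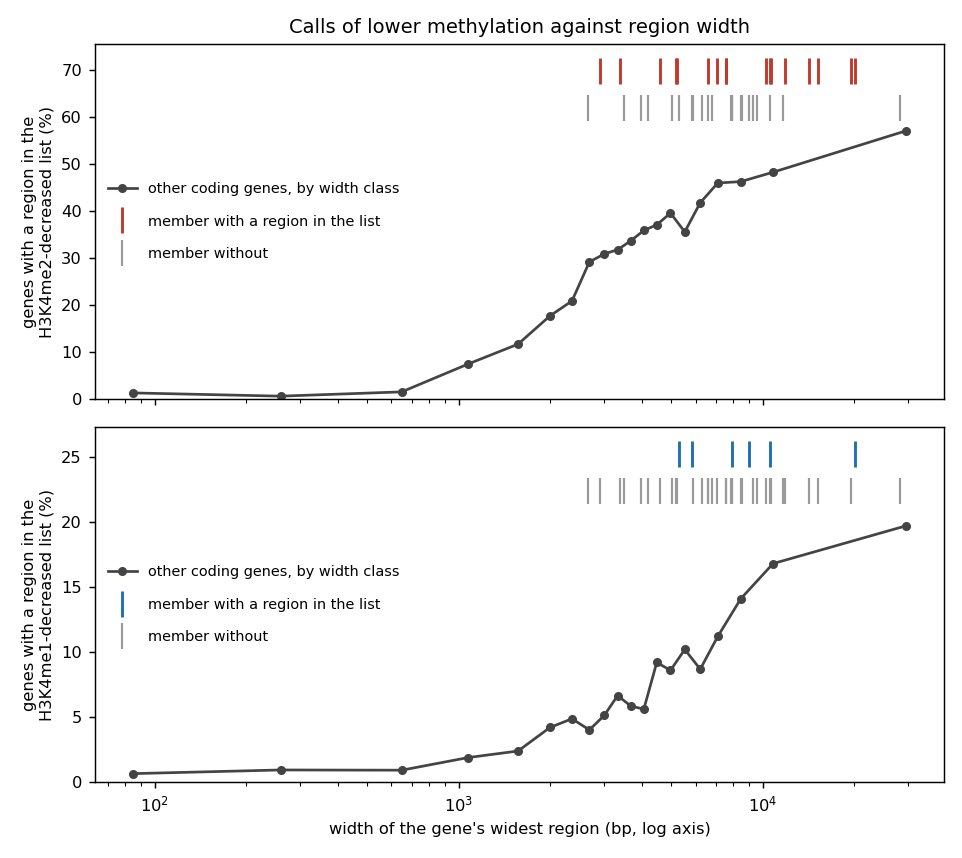
Share (%) of other coding genes with a region in the H3K4me2-decreased list (upper panel) or the H3K4me1-decreased list (lower panel), by 20 classes of the width of the widest region of the gene (bp, log axis). Ticks above the lines mark the widest region of each of the 40 genes, coloured for genes with a called region and grey for genes without. The shares climb with width to 57.1% and 19.7% in the widest class, and coloured and grey ticks overlap in width for both marks.

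The calls of each mark were placed against the TSS. Of the 18 regions called lower for H3K4me2, 16 held a TSS of their gene, 1 was wholly intronic and 1 lay outside the gene body, and their median width was 6370 bp (range 800 to 20040 bp). Of the 6 regions called lower for H3K4me1, 2 held a TSS and 3 were wholly intronic, and their median width was 3820 bp (range 1400 to 8980 bp). Counted over regions, H3K4me2 was called at 16 of 50 regions with a TSS and at 2 of 199 without, and H3K4me1 at 2 of 50 and at 4 of 199. Over the regions of all coding genes, H3K4me2 was called at 22.5% of those with a TSS and 0.695% of those without, and H3K4me1 at 1.18% and 0.91%, so that H3K4me2 calls lay mostly at a TSS there too.

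**Figure D3:**
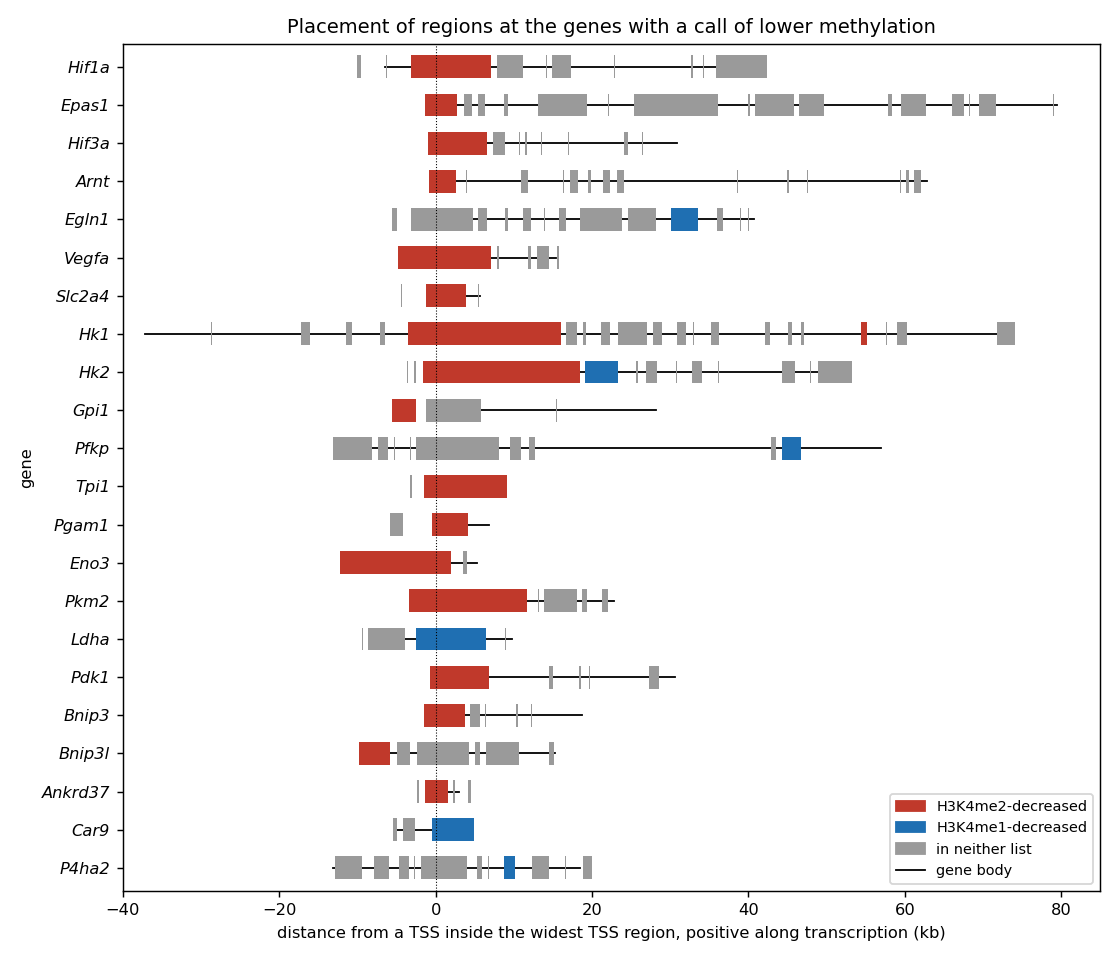
Regions of the 22 genes with a call, by distance in kb from a TSS inside the widest TSS region, positive along transcription. Bars are merged regions (red called lower for H3K4me2, blue called lower for H3K4me1, grey in neither list) and the thin line is the gene body. Red bars span the TSS in most genes, while the blue bars of *Egln1*, *Hk2*, *Pfkp* and *P4ha2* lie in the gene body away from it.

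By role, the HIF factors and the proteins that turn them over stood at opposite ends. All 4 HIF factors had a region called lower for H3K4me2, and each of these regions held a TSS. Among other coding genes of like region width, a mean of 43.6% had any called region, at a TSS or not. *Epas1* was classed by its 10660 bp body region, which was not called. None of the 4 oxygen sensors and *Vhl* had any region called for this mark, against 39.4% with any called region. These are counts of 4 genes each, and the difference was not tested. *Hif3a* was named by the study from these same samples, and *Hif1a* was named by it in connection with hypoxia in these mutants, so that their calls are no independent evidence. Without both, 2 of 2 HIF factors and 15 of 38 genes were called.

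*Hif1a*, which encodes the oxygen-regulated HIF-1 alpha, had a called region of 10240 bp at chr12:75005786-75016025. The region lay wholly within the annotated gene, held 1 of 4 annotated TSS and covered 421 bp of exon. *Epas1*, which encodes HIF-2 alpha, had the call over its only TSS, at chr17:87151886-87155945. Its other 15 regions, among them the 10660 bp region in the body at chr17:87178666-87189325, were in neither list. *Hif3a*, which encodes an alpha subunit known to restrain the other two, had a called region of 7580 bp at chr7:17641146-17648725 over 3 of 4 TSS. *Arnt*, which encodes the shared partner of the alpha subunits, had a called region of 3380 bp at chr3:95237526-95240905 over 5 of 9 TSS. The called regions of these genes thus spanned 3380 to 10240 bp, and each held a TSS. None of the regions of the HIF factors was called lower for H3K4me1.

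Among the genes that lower HIF, *Egln1*, which encodes the main oxygen sensor of most cells, had a region of 7900 bp over its TSS that was in neither list. A separate region of 3420 bp at chr8:127439666-127443085, 30069 bp from the TSS and nearly all intronic with 15 bp of exon, was called lower for H3K4me1. *Egln2* (8460 bp) and *Egln3* (3960 bp) encode the other two prolyl hydroxylases, and *Vhl* (2660 bp) encodes the ubiquitin ligase subunit that captures hydroxylated HIF. None of their regions was in either list. The share of called H3K4me2 among genes of like region width was 29.2% for *Vhl*, 35.9% for *Egln3* and 46.3% for *Egln1* and *Egln2*.

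**Figure D4:**
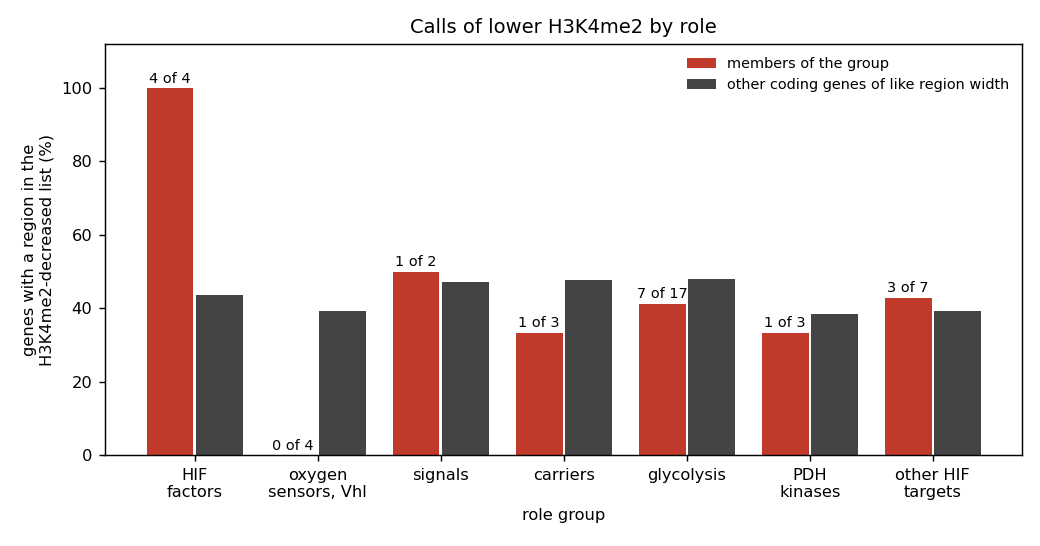
Share (%) of the genes of each role with a region called lower for H3K4me2 (red, with the count above) beside the mean share among other coding genes of like region width (grey). HIF factors stand at 4 of 4 and oxygen sensors with *Vhl* at 0 of 4, and glycolysis at 7 of 17 lies below its grey bar of 48.1%.

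The secreted signals and the carriers split within each pair or group. *Vegfa*, the main growth factor of blood vessels, had a region of 11840 bp at chr17:46162266-46174105 over 4 of 8 TSS that was called lower for H3K4me2, whereas the 8540 bp region that covered all of *Adm*, which encodes the vessel-dilating peptide adrenomedullin, was in neither list. Of the carriers, *Slc2a4*, which encodes the insulin-responsive muscle glucose carrier GLUT4, had a called region of 5160 bp at chr11:69757746-69762905 over all 5 of its TSS, and this region also lay in the window of *Ybx2*. *Slc2a1* was in neither list although its 28140 bp region was the widest of all 40 genes and 57.1% of other genes of like width were called. The lactate carrier gene *Slc16a3* (7940 bp) was in neither list.

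Of the 17 genes of glycolysis and lactate production, 7 (41.2%) had a region called lower for H3K4me2, against 48.1% among genes of like region width, and 3 (17.6%) a region called lower for H3K4me1, against 14.8%. Both hexokinase genes, for the entry of glucose into the pathway, were called. *Hk1* had a called region of 19540 bp at chr10:61789466-61809005 over 6 of 13 TSS and a second, intronic region of 800 bp at chr10:61750306-61751105, 1972 bp from the nearest TSS. *Hk2*, whose hexokinase is prominent in muscle, had a called region of 20040 bp at chr6:82706006-82726045 over 3 of 4 TSS. The region next to it, 640 bp further into the gene at chr6:82701146-82705365, was intronic and was called lower for H3K4me1. The *Hk1* and *Hk2* regions were the widest called regions of the 40 genes.

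In the next steps, calls at the TSS were fewer. *Gpi1*, which encodes glucose-6-phosphate isomerase, had a 7040 bp region over its TSS in neither list, and a separate region of 3060 bp upstream at chr7:35017806-35020865, 2498 bp from the TSS, was called lower for H3K4me2. The phosphofructokinase genes *Pfkl* (7900 bp), *Pfkm* (6800 bp) and *Pfkp* (10540 bp) encode the committing step of the pathway, and none had a region called for H3K4me2. *Pfkp* had an intronic region of 2460 bp at chr13:6589146-6591605, 934 bp from the nearest TSS, that was called lower for H3K4me1. *Aldoa*, which encodes the aldolase of muscle and embryo, lay wholly within an 11640 bp region in neither list, which also held the TSS of *Ppp4c*.

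The later steps were divided by isozyme. *Tpi1*, which encodes triose phosphate isomerase, lay wholly within a called H3K4me2 region of 10540 bp at chr6:124755206-124765745, which also held the TSS of *Spsb2* and lay in the window of *Usp5*. *Gapdh* (9240 bp), likewise covered in full, and *Pgk1* (7860 bp, its only region) were in neither list. Of the phosphoglycerate mutase genes, the broadly used *Pgam1* had a called region of 4580 bp at chr19:41985906-41990485 over its TSS, and the muscle form *Pgam2*, in a region of 5040 bp, had none. Of the enolase genes, the muscle form *Eno3* had a called region of 14180 bp at chr11:70458446-70472625 over all 5 of its TSS. That region also held the TSS of *Pfn1*, *Rnf167* and *Slc25a11*, so the call cannot be assigned to *Eno3* alone. The broadly used *Eno1*, with 9540 bp, had none. The muscle form thus lay in a called region at enolase, shared with neighbours, and not at phosphoglycerate mutase.

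*Pkm2*, the annotation's name for the gene of muscle pyruvate kinase, had a called H3K4me2 region of 15140 bp at chr9:59500926-59516065 over both of its TSS. *Ldha*, whose enzyme turns pyruvate into lactate, had a region of 8980 bp at chr7:54098706-54107685 over 6 of 7 TSS that was called lower for H3K4me1 and not for H3K4me2. *Ldhb* (5900 bp), which encodes the heart form of the enzyme, was in neither list. How reads that fit both a gene and its processed copies elsewhere in the genome were treated is not given in the sources used here, and *Gapdh*, *Pgk1*, *Eno1*, *Aldoa* and *Ldha* are known for such copies.

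The pyruvate dehydrogenase kinases keep pyruvate out of mitochondria. *Pdk1*, the member of the family best known as a HIF target, had a called H3K4me2 region of 7540 bp at chr2:71710566-71718105 over 7 of 8 TSS, and *Pdk2* (4180 bp) and *Pdk4* (3500 bp) were in neither list. Among genes of like region width, 46.0% were called for *Pdk1*, 35.9% for *Pdk2* and 33.7% for *Pdk4*.

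Of the further HIF targets, 3 of 7 (42.9%, against 39.4% among genes of like region width) had a region called lower for H3K4me2. *Bnip3* and *Bnip3l* encode related proteins that direct mitochondria to removal. The *Bnip3* region of 5200 bp at chr7:146097466-146102665 held 4 of 5 TSS, and the *Bnip3l* region of 3920 bp at chr14:67625186-67629105 held 2 of 7, while a wider *Bnip3l* region of 6620 bp over further TSS was in neither list. *Ankrd37*, an ankyrin repeat gene induced by hypoxia, had a called region of 2920 bp at chr8:47083686-47086605 over 3 of 4 TSS, which also held the TSS of *Lrp2bp* and lay in the window of *Ufsp2*. H3K4me1 was called lower at *Car9*, which encodes a carbonic anhydrase of the cell surface, and at *P4ha2*, which encodes a collagen prolyl hydroxylase. The *Car9* region of 5300 bp at chr4:43524606-43529905 held 1 of 7 TSS, ran past the 3′ end of the gene and lay in the window of *Tpm2*. The *P4ha2* region of 1400 bp at chr11:53935426-53936825 was intronic, 1350 bp from the nearest TSS. *P4ha1* (6300 bp), its close relative, and *Ddit4* (6620 bp), whose product restrains mTOR signalling, were in neither list.

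To see whether the genes with a region called lower for H3K4me2 differed from the rest of the 40 in their regions or promoters, both groups were set side by side. The widest region had a median of 7580 bp (range 2920 to 20040 bp) in the 17 called genes and 7860 bp (range 2660 to 28140 bp) in the other 23, so that the ranges overlapped almost throughout. The called genes were longer, with a median of 23639 bp against 14153 bp, and had medians of 5 against 4 regions. Before the TSS inside the widest TSS region, the called genes had a median of 18 against 10 CpG and a GC content of 62.0% against 58.8%. This window was chosen after the data were seen, and at *Bnip3l* and *Gpi1* that region was not the called one. The groups overlapped in each of these measures, and no test was made.

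Calls shared with a neighbour need care, since a region over closely spaced genes cannot be assigned to either. Of the 18 regions called lower for H3K4me2, 3 held the TSS of another coding gene and 4 lay in the window of another coding gene. Without regions in the window of another coding gene, 13 of the 40 genes were called, against 21.8% of the coding genes that kept a region. The 40 include *Egln2*, *Tpi1*, *Gapdh* and *Ankrd37*, which kept no region and so could not be called. The genes that lost their call were *Slc2a4*, *Tpi1*, *Eno3* and *Ankrd37*.

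Another 70 genes of the same pathways, listed for their function but with earlier results of these data known, gave a wider view. All 70 were found and 65 had a TSS inside a region. Of these 70, 28 (40%) had a region called lower for H3K4me2. The share was 36.5% among genes of like region width and 28.7% over all coding genes with a region. The call lay at a TSS for 20 of the 65, against 29.2% of coding genes with a TSS inside a region. Among the regulators of HIF, calls were found at *Rbx1* and *Siah1a*, which encode parts of the ubiquitin ligases that act on HIF and on the prolyl hydroxylases. Calls were also found at the co-activator gene *Ep300* and at *Cited2*, whose product competes with HIF-1 alpha for EP300. No region was called lower for H3K4me2 at *Hif1an*, *Cul2*, *Tceb1*, *Tceb2*, *Siah2* and *Crebbp*, or at the *Arnt* relatives *Arnt2* and *Arntl*. In sugar and pyruvate handling, calls included those at *Slc2a3*, *Slc2a8*, *Pfkfb1*, *Pfkfb2*, *Aldoc*, *Bpgm*, *Slc16a1*, *Pdhb*, *Pdp1*, *Pgm2* and *Gbe1*. Among targets and further hypoxia genes they were found at *Flt1*, *Epo*, *Tfrc*, *Hmox1*, *Mxi1*, *Kdm3a*, *Plod1*, *P4hb*, *Fam162a*, *Ak4*, *Rbm38* and *Commd1*. *Rbm38* and *Commd1* were named by the study in connection with hypoxia in these mutants and are not independent evidence. H3K4me1 was called lower at 3 of the 70 (4.29%, against 9.55% among genes of like region width), *Arntl*, *Fam162a* and *Ak4*, and at none of their TSS.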

How the data were processed

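H3K4me1, H3K4me2 and H3K4me3 ChIP-Seq was made from pools of E11.5 hearts, and groups were taken from the sample titles. Per the labels and the study's text, the authors aligned reads to mm9, called peaks, merged them over replicates and marks, and listed the merged regions with lower H3K4me1 or H3K4me2 in mutant hearts below their false discovery threshold. The submitters' processing notes name CASAVA 1.8.2, FastQC, Bowtie2, Bowtie and SAMtools. The peak caller and the test are not given in the sources used here. The deposited H3K4me2 list differs in length from the count in the study's text, so it may not be the list behind that text.

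Each list holds chromosome, start and end, on a grid of 20 bp. The last region of all 21 chromosomes ended within NCBIM37 (mm9). Genes, TSS and exons came from GENCODE vM1, and coordinates are 1-based. A region was assigned to every coding gene whose body or 5 kb TSS window it touched by 1 bp, and was called lower where its coordinates were identical in a decreased list. Other coding genes were sorted into 20 classes by their widest region, and each of the 40 genes was compared with its class. Promoter windows held 250 bases before a TSS. Intervals are 95% Wilson intervals and cover counting only, since depth is unknown. No test was made. The scripts were tested on simulated lists. All 40 genes were to be named, with coordinates for those with a called region. Of the further 70 genes, those called were to be named. The name of 1 of them is not reported here, and the counts include it. The 40 genes and the lists were chosen with earlier results of these data known. Alternatives were other windows, TSS sets, widths and classes. Python 3.11.15, pandas 2.3.3 and numpy 2.4.6 were used.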

Additional observations from a re-analysis of the deposited data

How the results depend on the processing

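The results were recomputed under 37 alternatives, of which 30 left the value near that reported. A count of genes was taken as near within 1.5-fold, so that 13 and 19 against 17 passed, as did 4 against 6 for H3K4me1. Some alternatives had little room to move a count. Leaving out *Hif3a* could change it by 1 at most, and calling by an overlap of 1 bp gave the same 17 and 6 genes. The 30 is therefore no measure of how firm the results are. The number of genes with a region called lower for H3K4me2 was lowest at 13, without regions in the window of another coding gene. It was highest at 19, with windows of 10 kb, where *Ddit4* and *Car9* joined. Of the coding genes with a region under these settings, 21.8% and 30.7% were called. For H3K4me1 the number ran from 2, with only regions that hold a TSS, to 7 with windows of 10 kb, where *Epas1* joined. The shares of coding genes were 1.29% and 7.89%. With only 5 kb either side of each TSS it was 4 genes, against 2.8%. The number of genes with a TSS inside a region was 37 with the 5′-most TSS, against 67.4% of coding genes, and 40 otherwise. The median width of the widest region ran from 6620 to 7840 bp. The 6620 bp came without regions in the window of another coding gene, and genes that kept no region entered it with no width. The mean share of other coding genes called lower for H3K4me2 was 44.5% with classes by the widest region. It was 38.3% with classes by summed width, 27.3% by number of regions and 45.9% by the widest region with a TSS. For H3K4me1 it was 12.5%, and 8.4%, 4.91% and 11.7% under the same changes. Whether 42.5% of the 40 genes lies above or near the share of like genes therefore depends on the property by which genes are called alike. A stricter threshold could not be tried because the lists hold no score, and no pool could be left out. No paired analysis was possible because the lists hold no value per library.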

Other observations

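The classes of region width were uneven among the 40 genes. In the class of 7640 to 9360 bp, which holds *Egln1*, *Egln2*, *Adm*, *Slc16a3*, *Pfkl*, *Gapdh*, *Pgk1* and *Ldha*, 0 of 8 genes had a region called lower for H3K4me2, against 46.3% of other coding genes in that class. In the class below it 4 of 6 were called, against 46.0%. In the 2 classes above that of 7640 to 9360 bp 4 of 7 were called, against 48.3%, and 4 of 5, against 57.1%. Calls were also absent in narrower classes with 2 of the 40 genes each. These were 3880 to 4240 bp (0 of 2, against 35.9%), 5240 to 5840 bp (0 of 2, against 35.6%) and 5860 to 6600 bp (0 of 2, against 41.8%). In the class of 4720 to 5220 bp 2 of 3 were called, against 39.6%. The class of 7640 to 9360 bp was singled out after its values were seen and was not tested. *Egln1* and *Ldha* in it had regions called lower for H3K4me1.

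Some called regions lay between 5 and 10 kb from a TSS of the 40 genes and so outside the windows used. Upstream of *Epas1*, a region of 1380 bp at chr17:87144146-87145525, 7722 bp from its TSS, was called lower for H3K4me1. Near *Ddit4*, a region of 2600 bp at chr10:59404786-59407385, 7133 bp from its TSS, was called lower for H3K4me2. Near *Eno3*, a region of 6220 bp over the TSS of *Spag7* was called lower for H3K4me2, and near *Car9*, a region of 7820 bp over the TSS of *Ccdc107* and *E130306D19Rik* was called lower for the same mark. A further region of 360 bp, 9039 bp from the nearest TSS of *Tpi1*, was also called lower for H3K4me2. Which gene each of these regions serves was not tested.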
